A study of Sus scrofa with 6 samples.

Results

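The set described here comprises the zinc finger genes of pig chromosomes 2 and 6 that carried a ZNF symbol followed by a number and held at least 60 read counts summed over 6 libraries of pig embryonic stem cells. Of the 31908 genes in the deposited table, 227 carried such a symbol, 89 of these lay on chromosome 2 or 6, and 85 reached 60 counts, 14 on chromosome 2 and 71 on chromosome 6. All 85 were annotated as protein coding. All 85 also passed the filter on low counts, so they stand among the 15197 genes tested. Poly(A) RNA was sequenced from 3 lines kept in the medium labelled FIW, all with the genotype label WT and with 2 libraries each. Lines PA_1 and PA_3 derive from parthenogenetic embryos, made from an egg activated without sperm, and line IVF_1 derives from an embryo fertilised in vitro. Each origin is thus represented by 1 or 2 lines, so a difference between lines cannot be told apart from a difference between origins. The labels do not state whether the 2 libraries of a line came from separate cultures, and the p-values measure only the spread between these libraries.

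Most mammalian genes of this family encode proteins with a row of C2H2 zinc fingers that bind DNA, and many carry a KRAB domain. The KRAB domain recruits the corepressor TRIM28, which brings SETDB1 and other enzymes that write repressive chromatin over transposable elements and imprinted loci in embryonic stem cells. Others carry a SCAN domain, which pairs such proteins with one another, or fingers alone. Many of the genes arose by tandem duplication and sit in clusters in which close copies lie side by side.

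Within the table's Sscrofa11.1 coordinates, the 85 genes fell into 45 runs when neighbours at most 100 kb apart were joined. Of these runs, 15 held 2 or more genes and together 55 genes, and the other 30 genes stood alone. The largest run held 7 genes, from ZNF606 to ZNF446 at chr6:62695611-63055808. The runs gave 40 neighbouring pairs, of which 13 were head to head, 14 tail to tail and 13 on the same strand. In 21 pairs no other annotated gene lay wholly between the neighbours. The spans of 2 pairs overlapped, ZNF146 with ZNF565 and ZNF461 with ZNF382. The libraries were made with a stranded kit, but the strand setting of the counting is not given, so reads of overlapping genes on opposite strands cannot be assigned with certainty, and neither can reads shared by close copies.

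The libraries held 15248306 to 28575817 counts. Over the 85 genes, the median absolute log2 difference between the libraries of a line was 0.169 in PA_1, 0.0938 in PA_3 and 0.0726 in IVF_1. The PA_1 libraries thus differed most from each other. Mitochondrial transcripts took 12.15% and 12.23% of counts in PA_3 and 7.671% to 9.652% in the other lines. Summed CPM (counts relative to the TMM-scaled library size) over the 8 pluripotency markers matched by symbol was 4970 to 4978 in IVF_1 and 3006 to 3277 in the PA lines, mostly from DNMT3B. DNMT3B, NANOG, EPCAM and CDH1 were called lower in both PA lines than in IVF_1, and LIN28A and LIN28B lower in PA_3. PRDM14 was called higher in both PA lines and OTX2 higher in PA_3 than in IVF_1. NANOG had means of 75.7 CPM in IVF_1, 30.6 in PA_1 and 10.6 in PA_3. The 6 endoderm markers summed to 20.72 to 26.87 CPM in PA_3, 10.87 to 11.84 in IVF_1 and 4.197 to 4.541 in PA_1, with AFP and TTR at 0 or 1 count in every library. Of these, FOXA2 alone was called higher in PA_3 than in IVF_1, and GATA4 and GATA6 were called lower. The 5 neural markers matched summed to 593.9 to 649.6 CPM in PA_1 and 429.8 to 461.4 in the other lines, but PAX6 and LHX2 were far lower in PA_3 than in IVF_1 (means of 0.295 against 47.3 CPM and 0.628 against 21.9 CPM) and STMN2 was higher (121 against 29.97 CPM). The 8 fibroblast markers, as feeder cells would bring, summed to 355.7 to 375.7 CPM in PA_3 and 272.9 to 316.8 in the other lines, mostly from FBLN1, with POSTN at 0 to 2 counts. In PA_3 against IVF_1, FBLN1 and THY1 were called higher, while COL1A2 and COL3A1 were called lower. The 6 trophoblast markers matched summed to 11.33 to 15.76 CPM, with CDX2 and HAND1 at 0 counts in all 6 libraries. The part of these differences in the results was not tested.

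Expression of the zinc finger genes was low to moderate in all lines. By TPM (the authors' level, scaled by gene length and library total), the mean over the 6 libraries had a median of 8.24 over the 85 genes and ran from 0.158 for ZNF469 to 135 for ZNF146. The mean was under 1 TPM for 3 genes, 1 to under 10 for 49, 10 to under 50 for 30, and 50 or more for 3. The 14 genes of chromosome 2 had a median of 15.9 TPM and the 71 genes of chromosome 6 a median of 8.06 TPM. The 5 genes with the highest TPM held 29.8% of the summed TPM of the set.

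ZNF146 (ENSSSCG00000025355, chr6:45520895-45601653, plus strand) encodes a protein made almost wholly of fingers, also known as OZF. Its TPM was 144 and 146 in PA_1, 144 and 143 in IVF_1, and 118 and 114 in PA_3. Its CPM was 127 and 135 in PA_1, 133 and 130 in IVF_1, and 129 and 126 in PA_3. The TPM was lowest in PA_3, whereas the CPM was nearly level, and edgeR called it in none of the comparisons, with a log2 fold change of -0.04 (SE 0.07, adjusted p = 0.61) in PA_3 against IVF_1. The same contrast between scales held for the sum over the set, which was 1017 and 1025 TPM in PA_3 and 1160 to 1289 in the other lines, but 2109 and 2142 CPM in PA_3 and 2055 to 2272 in the other lines. Mitochondrial transcripts took 32.64% and 33.16% of TPM in PA_3 and 18.41% to 22.6% in the other lines. Levels of one gene across lines are therefore given below as CPM, and TPM is kept for levels between genes.

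The other genes at the top of the TPM order were ZNF358, ZNF667, ZNF24 and ZNF773. ZNF358 on chromosome 2 stood at 70.1 to 86.0 TPM over the 6 libraries and ZNF667, a KRAB gene, at 48.6 to 60.8 TPM. ZNF24, a SCAN gene that in mammals acts in the proliferation of neural progenitors, stood at 34.6 to 52.4 TPM, and the KRAB gene ZNF773 at 26.4 to 39.9 TPM. The ranges of ZNF24 and ZNF773 overlapped, and that of ZNF358 lay above the range of ZNF667.

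At the other end, ZNF404 and ZNF296 were the genes just inside the threshold of 60 counts, with 110 and 122 counts summed over the 6 libraries. ZNF541 with 59 counts and ZNF536 with 36 counts were just outside it. ZNF404, with 15 and 19 counts in PA_1, 7 and 12 in IVF_1, and 27 and 30 in PA_3, shows how few reads stand behind the lowest values. ZNF404 was called in no comparison, and its log2 fold change of 0.93 in PA_3 against IVF_1 carried an SE of 0.40 (edgeR adjusted p = 0.063).

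ZNF175 was the only one of the 85 genes that was silent in 1 line and expressed in the others. Silent here means at most 3 counts over both libraries of a line, and expressed means a mean of at least 1 CPM in each other line. That is 1.18% of the set, against 31 of the 15197 genes tested, or 0.204%. None of the 134 ZNF genes on other chromosomes that reached 60 counts met the definition. ZNF175 encodes a KRAB zinc finger protein known in human cells as OTK18 (ENSSSCG00000003233, chr6:58408885-58419435, minus strand).

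ZNF175 had 175 and 127 counts in PA_1, 63 and 86 in IVF_1, and 0 and 0 in PA_3. On the TPM scale its level was 4.85 and 5.44 in PA_1, 2.99 and 4.46 in IVF_1, and 0 and 0 in PA_3. It was thus expressed below the set's median TPM in PA_1 and IVF_1, and had no read in PA_3. In CPM it stood at 6.43 ± 0.701 (SD, n = 2) in PA_1 and 4.71 ± 1.29 in IVF_1. A count of 0 over both PA_3 libraries allows up to 3 counts, or 0.0599 CPM, which covers counting error only. The mean CPM of ZNF175 was 107.4 times that limit in PA_1 and 78.77 times in IVF_1, without regard to the spread of those libraries. The edgeR adjusted p was 2.9e-09 for PA_1 against PA_3 and 9.3e-09 for PA_3 against IVF_1. Both PA_1 libraries lay above both IVF_1 libraries, but this difference was not called (log2 fold change 0.44, SE 0.21, edgeR adjusted p = 0.12). Since these are bulk samples, fewer cells expressing a gene and less RNA per cell cannot be told apart in any of the values given here. The calls of ZNF175 held without each of the libraries in turn.

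Most expressed genes around ZNF175 kept their reads in PA_3. Within 300 kb lay 36 other annotated genes, of which 16 reached 1 CPM in at least 1 line, and 1 of these 16 was also at 0 counts in PA_3. That gene, annotated only as zinc finger protein 84-like (ENSSSCG00000032969, chr6:58189402-58201706, plus strand), lies within the span of ZNF613 on the opposite strand. Its counts were 71 and 47 in PA_1, 34 and 38 in IVF_1, and 0 and 0 in PA_3. Its mean CPM was 41.5 times the PA_3 limit in PA_1 and 37.91 times that limit in IVF_1. Between it and ZNF175, ZNF649, ZNF577 and the gene of the cytoplasmic tRNA 2-thiolation protein 1, a tRNA-modifying enzyme subunit 12.4 kb from ZNF175, kept their reads in PA_3. Their means in PA_3 were 9.67, 17.8 and 2.61 CPM, against 9.33, 23.1 and 1.56 in IVF_1. Of the 16 genes, 8 were called higher and 2 lower in PA_3 than in IVF_1, where 25.9% of all genes tested were called higher and 26.2% lower. The 2 lower ones were the zinc finger protein 84-like gene and ZNF577. Whether these genes differ from the background was not tested.

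**Figure D1:**
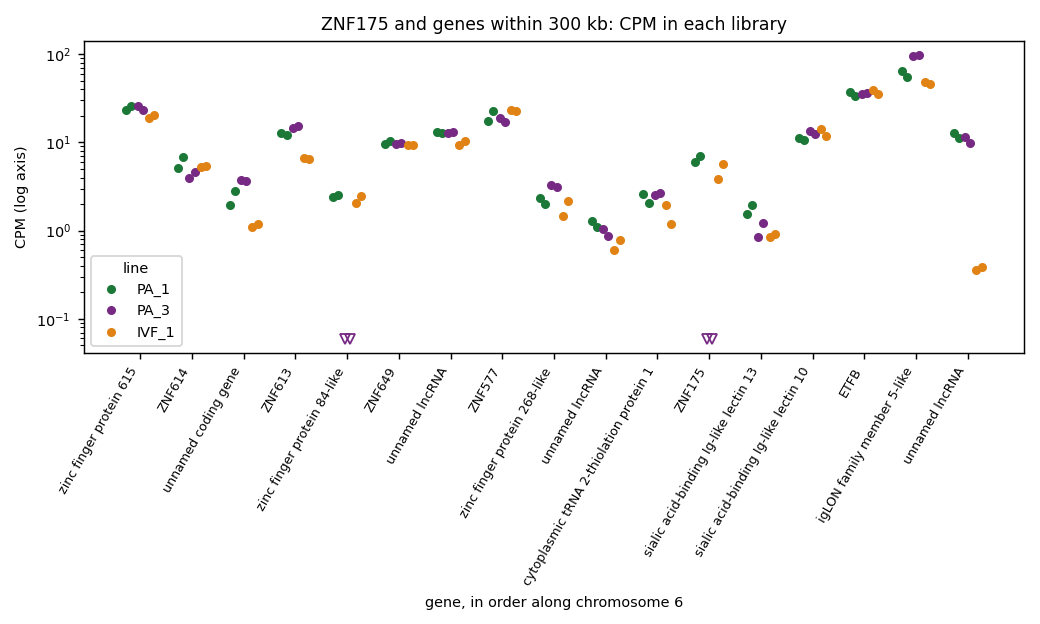
CPM on a log axis in each of the 6 libraries for ZNF175 and the 16 genes within 300 kb that reached 1 CPM in at least 1 line, in order along chromosome 6; filled circles are libraries, and open triangles at the limit that 0 counts allow mark libraries with no read. Only ZNF175 and the zinc finger protein 84-like gene have triangles, both for the 2 libraries of PA_3.

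A further 2 zinc finger genes without a symbol, on chromosome 2, were silent in a line. These and the zinc finger protein 84-like gene are outside the 85 genes and were picked after their values were seen. The zinc finger protein 14-like gene (ENSSSCG00000041142, chr2:66627077-66639442, minus strand) had 119 and 98 counts in PA_1, 26 and 41 in IVF_1, and 0 and 0 in PA_3. Its mean CPM was 78.31 times the PA_3 limit in PA_1 and 35.52 times that limit in IVF_1. The zinc finger protein 791-like gene nearby (ENSSSCG00000029347, chr2:66396668-66466187, minus strand) was the other way round, with 279 and 294 counts in IVF_1, 1 and 0 in PA_1, and 2 and 0 in PA_3. Its level in PA_1 was 0.116% of that in IVF_1 (exact 95% counting interval 0.00293% to 0.645%), and that in PA_3 was 0.221% (0.0268% to 0.799%). So on chromosome 2 the former was without reads in PA_3 alone, and the latter nearly without reads in both PA lines.

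Against IVF_1, PA_1 had 17 of the 85 genes higher and 4 lower at an edgeR adjusted p under 0.05. Over all genes tested, 15.3% were called higher and 16.1% lower in this comparison. The share called either way was 24.7% of the set against 31.4% of all genes. The median log2 fold change was 0.11 over the set and 0.00 over all genes, and 1.18% of the set were called and changed at least 2-fold, against 6.62% of all genes. The changes were thus small for most of the set, and the higher calls outnumbered the lower ones. The 134 ZNF genes of other chromosomes gave 25 higher and 9 lower calls with a median of 0.07.

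The 8 genes with the largest rise in PA_1 over IVF_1 were ZNF470, ZNF613, ZNF331, ZNF333, ZNF672, ZNF521, ZNF23 and ZNF821, with log2 fold changes from 0.96 to 0.60. ZNF470, a KRAB gene, stood at 13.5 and 11.3 CPM in PA_1, 6.64 and 6.15 in IVF_1, and 4.74 and 5.48 in PA_3. Both PA_1 libraries lay above the other 4, with a log2 fold change of 0.96 (SE 0.15, adjusted p = 0.00013) against IVF_1 and 1.28 (SE 0.14, adjusted p = 3e-06) against PA_3. ZNF331, a gene imprinted in human, stood at 7.05 and 8.34 CPM in PA_1, 4.11 and 4.06 in IVF_1, and 4.82 and 5.56 in PA_3. The 3 lines did not overlap, and PA_1 was higher than IVF_1 by a log2 fold change of 0.90 (SE 0.18, adjusted p = 0.00091), while PA_3 differed from IVF_1 by 0.35 (SE 0.18, adjusted p = 0.12). ZNF521, which encodes a large multi-finger cofactor of progenitor cells, stood at 77.1 and 61.9 CPM in PA_1, 42.7 and 43.5 in IVF_1, and 52.6 and 51.5 in PA_3. It was called in all 3 comparisons in that order of lines, with log2 fold changes of 0.70 for PA_1 against IVF_1, 0.27 for PA_3 against IVF_1 and 0.42 for PA_1 against PA_3. Its call in PA_3 against IVF_1 was lost without either library of PA_3 or of IVF_1.

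The 4 genes called lower in PA_1 than in IVF_1 were ZNF296, ZNF555, ZNF879 and ZNF408. ZNF296, known in mouse embryonic stem cells as a factor of the pluripotent state, stood at 0.644 and 0.709 CPM in PA_1, 1.39 and 1.37 in IVF_1, and 1.01 and 0.837 in PA_3. Its log2 fold change was -1.04 (SE 0.36, adjusted p = 0.037), and leaving out any 1 of the 6 libraries ended the call. The KRAB gene ZNF555 stood at 24.2 and 31.9 CPM in PA_1 against 35.6 and 37.3 in IVF_1 (log2 fold change -0.39, SE 0.12, adjusted p = 0.016), and ZNF408 at 13.5 and 13.1 against 17.3 and 17.2 (-0.38, SE 0.11, adjusted p = 0.019). Both calls were lost without either IVF_1 library, that of ZNF555 also without PA_1 replicate 1, and that of ZNF879 without IVF_1 replicate 2. Without IVF_1 replicate 1 or 2, the higher calls of the set fell to 10 each and the lower ones to 1 and 0, and without PA_1 replicate 2 the lower calls numbered 11. Without a PA_1 or IVF_1 library the line is represented by 1 library, which is then assumed to vary like the others.

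Against the same IVF_1 libraries, PA_3 had 26 of the 85 genes higher and 17 lower. Of all genes tested, 25.9% were called higher and 26.2% lower here. The set's share called either way was 50.6%, against 52.1% of all genes, and its median log2 fold change was 0.03. At least 2-fold calls made up 3.53% of the set and 13.1% of all genes. They were ZNF613 and ZNF575 higher and ZNF175 lower. The median is the same with ZNF175 at its limit. The ZNF genes of other chromosomes gave 31 higher and 27 lower calls.

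ZNF613 stood at 12.8 and 11.99 CPM in PA_1, 6.70 and 6.47 in IVF_1, and 14.5 and 15.4 in PA_3. All 4 PA libraries lay above both IVF_1 libraries, with log2 fold changes of 1.18 (SE 0.13, adjusted p = 1.4e-06) for PA_3 and 0.91 (SE 0.13, adjusted p = 7.4e-05) for PA_1, which share the IVF_1 libraries. ZNF575, of lower level, stood at 2.71 and 2.40 CPM in PA_1, 1.75 and 2.09 in IVF_1, and 3.99 and 4.53 in PA_3. Its highest values were those of PA_3, with a log2 fold change of 1.15 (SE 0.23, adjusted p = 0.00051) against IVF_1. Next were ZNF692, ZNF461, ZNF606, ZNF653, ZNF787 and ZNF583, with log2 fold changes from 0.85 to 0.53. Of these, the call of ZNF653 was lost without IVF_1 replicate 1.

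Below ZNF175, the largest falls in PA_3 against IVF_1 were those of ZNF333, ZNF317, ZNF423, ZNF304, ZNF555, ZNF396 and ZNF543, with log2 fold changes from -0.81 to -0.42. ZNF423 encodes a multi-finger relative of ZNF521 that binds SMAD and EBF proteins. It stood at 80.9 and 70.8 CPM in PA_1, 66.4 and 66.2 in IVF_1, and 44.3 and 44.5 in PA_3. PA_3 was lower than both other lines, with a log2 fold change of -0.58 (SE 0.08, adjusted p = 2.4e-05) against IVF_1. ZNF423 and ZNF521 thus took different orders, with PA_3 lowest for ZNF423 and IVF_1 lowest for ZNF521. The KRAB gene ZNF317 stood at 20.4 and 28.8 CPM in PA_1, 26.0 and 24.7 in IVF_1, and 14.6 and 16.2 in PA_3, a log2 fold change of -0.71 (SE 0.14, adjusted p = 0.00058) for PA_3 against IVF_1. The PA_1 libraries of ZNF317 lay on either side of the IVF_1 libraries, and both lay above PA_3. Without PA_3 replicate 1 the set's calls in this comparison were 15 higher and 11 lower, without IVF_1 replicate 1 they were 14 and 10, and without IVF_1 replicate 2 the higher calls were 16.

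Between the PA lines, 15 genes of the set were higher in PA_1 and 11 lower than in PA_3. Over all genes these shares were 17.8% and 19%. The set's share called either way was 30.6% against 36.8% of all genes, and the set's median log2 fold change was 0.05. At least 2-fold calls made up 3.53% of the set, against 8.32% of all genes. They were the higher levels of ZNF175, ZNF333 and ZNF470 in PA_1. Genes that stood alone gave 10 higher and 1 lower calls of 30, and genes in runs gave 5 higher and 10 lower of 55. This division was made without regard to expression, but the difference between the groups was not tested. Without PA_1 replicate 1 the higher calls of the whole set rose to 27, and without PA_3 replicate 2 or either IVF_1 library the lower calls numbered 6.

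Below ZNF175, ZNF333, ZNF470 and ZNF423, the largest rises in PA_1 over PA_3 were those of ZNF317, ZNF331, ZNF672 and ZNF436, with log2 fold changes from 0.65 to 0.47. The genes with the largest falls were ZNF575, ZNF692, ZNF879, ZNF787, ZNF444, ZNF628, ZNF524 and ZNF358, with log2 fold changes from -0.73 to -0.30. Among these, the call of ZNF331 was lost without PA_3 replicate 1, and those of ZNF436, ZNF575 and ZNF358 without PA_3 replicate 2. The calls of ZNF628 and ZNF524 were lost without PA_1 replicate 2, PA_3 replicate 2 or either IVF_1 library, and that of ZNF524 also without PA_3 replicate 1. The other calls named here were kept without each library.

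**Figure D2:**
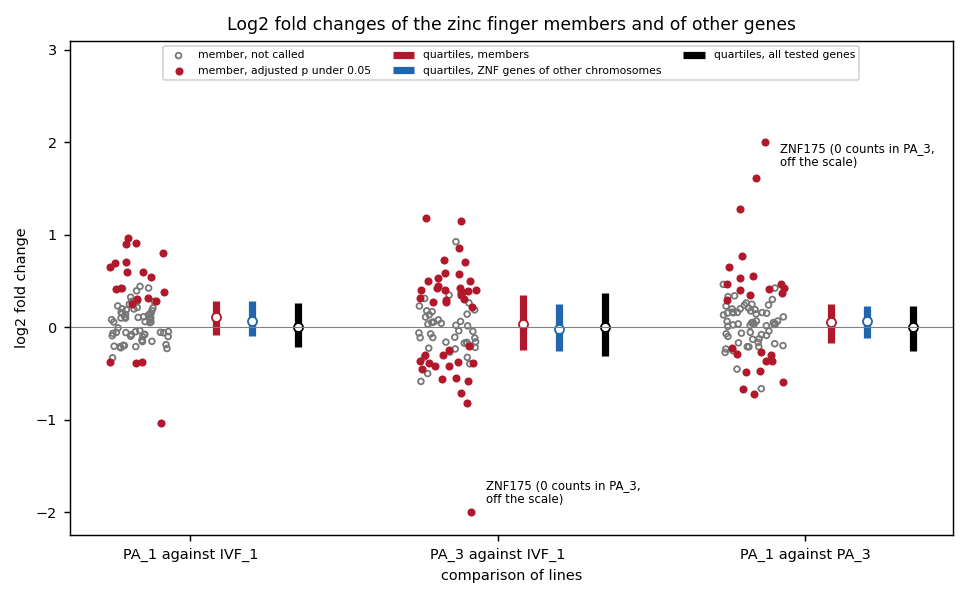
Log2 fold changes of the 85 genes in each comparison of lines (filled circles, edgeR adjusted p under 0.05; open circles, not called), with bars from the first to the third quartile and a white point at the median for the set, the 134 ZNF genes of other chromosomes and all 15197 genes tested. Apart from ZNF175, drawn at the edge of the scale because its PA_3 libraries hold 0 counts, all points lie between -1.04 and 1.62, and the medians lie near 0.

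A pair of genes was called in opposite directions in the 2 PA lines against IVF_1. ZNF333, which in human encodes a protein with a doubled KRAB domain (ENSSSCG00000013786, chr2:64585109-64607783, minus strand), stood at 18.4 and 17.8 CPM in PA_1, 10.6 and 10.1 in IVF_1, and 5.999 and 5.78 in PA_3. The lines did not overlap, and IVF_1 lay between the PA lines. The log2 fold change was 0.81 (SE 0.12, adjusted p = 8.9e-05) for PA_1 and -0.81 (SE 0.13, adjusted p = 9.3e-05) for PA_3, each against the same IVF_1 libraries. The direct comparison of PA_1 with PA_3 gave 1.62 (SE 0.12, adjusted p = 2.5e-08). ZNF879 (ENSSSCG00000021640, chr2:79412195-79454231, minus strand) took the reverse order, with 51.4 and 52.0 CPM in PA_1, 64.7 and 69.8 in IVF_1, and 83.9 and 72.3 in PA_3. Its log2 fold change was -0.38 (SE 0.09, adjusted p = 0.003) for PA_1 and 0.22 (SE 0.08, adjusted p = 0.041) for PA_3 against IVF_1, and -0.60 (SE 0.08, adjusted p = 3.4e-05) for PA_1 against PA_3. The call for PA_3 against IVF_1 was lost without PA_3 replicate 1 and without either IVF_1 library, and that for PA_1 against IVF_1 without IVF_1 replicate 2.

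**Figure D3:**
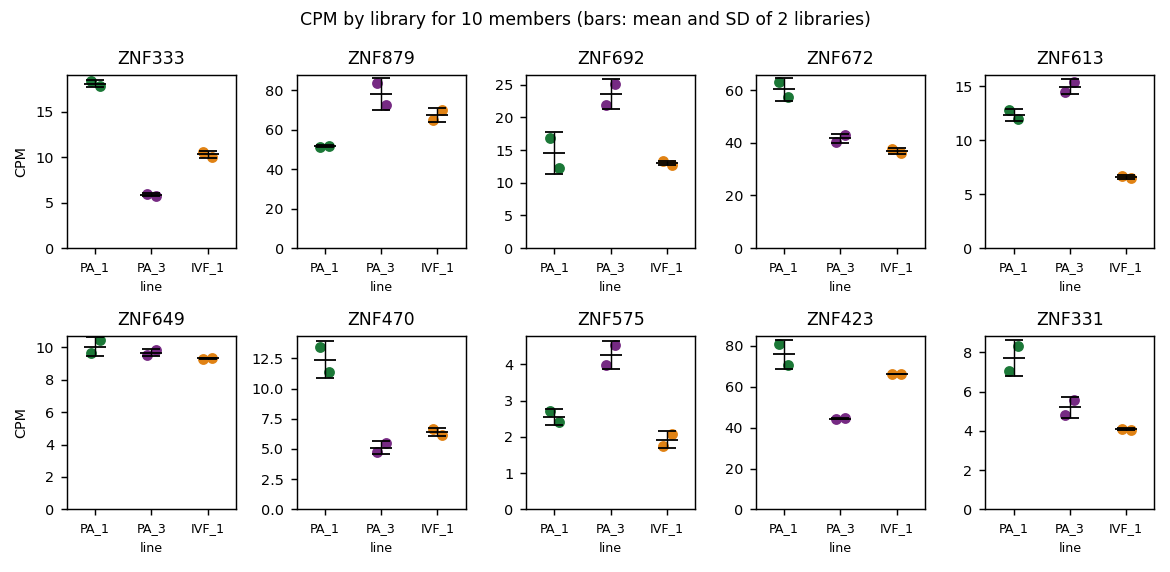
CPM of 10 genes of the set in each library, with the mean and the SD of the 2 libraries of a line. ZNF333 is high in PA_1 (18.4 and 17.8) and low in PA_3 (5.999 and 5.78), ZNF613 is high in both PA lines, and its neighbour ZNF649 is level across the 3 lines (9.30 to 10.5).

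Across the whole set, 31 genes were called in no comparison. By mean CPM, PA_1 was the highest line for 31 genes, PA_3 for 29 and IVF_1 for 25, while PA_1 was the lowest line for 10, PA_3 for 37 and IVF_1 for 38. The matching counts over all genes tested are not given here, neither for these tallies nor for calls shared by both PA lines. Calls of both PA lines rest on the same IVF_1 libraries, so they are not independent. The genes called higher in both PA lines than in IVF_1 were ZNF653, ZNF23, ZNF821, ZNF567, ZNF461, ZNF613, ZNF606 and ZNF521, and those called lower in both were ZNF408 and ZNF555. Of these 10, only ZNF613 and ZNF606 kept both calls under all 12 alternatives, and the others lost 1 or both without at least 1 library. ZNF23, for example, stood at 15.1 and 16.5 CPM in PA_1, 9.97 and 10.01 in IVF_1, and 13.9 and 13.0 in PA_3. The share called was also read by depth, with no test of the difference. In PA_3 against IVF_1, 69% of the 42 genes above the median summed count of 2042 were called, and 32.6% of the other 43. In PA_1 against IVF_1 the shares were 26.2% and 23.3%, and in PA_1 against PA_3 45.2% and 16.3%. By chromosome, 57.1% of the 14 genes on chromosome 2 and 18.3% of the 71 on chromosome 6 were called in PA_1 against IVF_1. For PA_3 against IVF_1 the shares were 64.3% and 47.9%, and for PA_1 against PA_3 64.3% and 23.9%. Over all genes tested, of any depth and chromosome, 31.4% were called in PA_1 against IVF_1. In PA_3 against IVF_1 52.1% were called, and in PA_1 against PA_3 36.8%. Shares of all genes of like depth or on the same chromosomes are not given here. The median summed count was 3250.5 on chromosome 2 and 1890 on chromosome 6, and the part of this difference in depth was not tested.

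**Figure D4:**
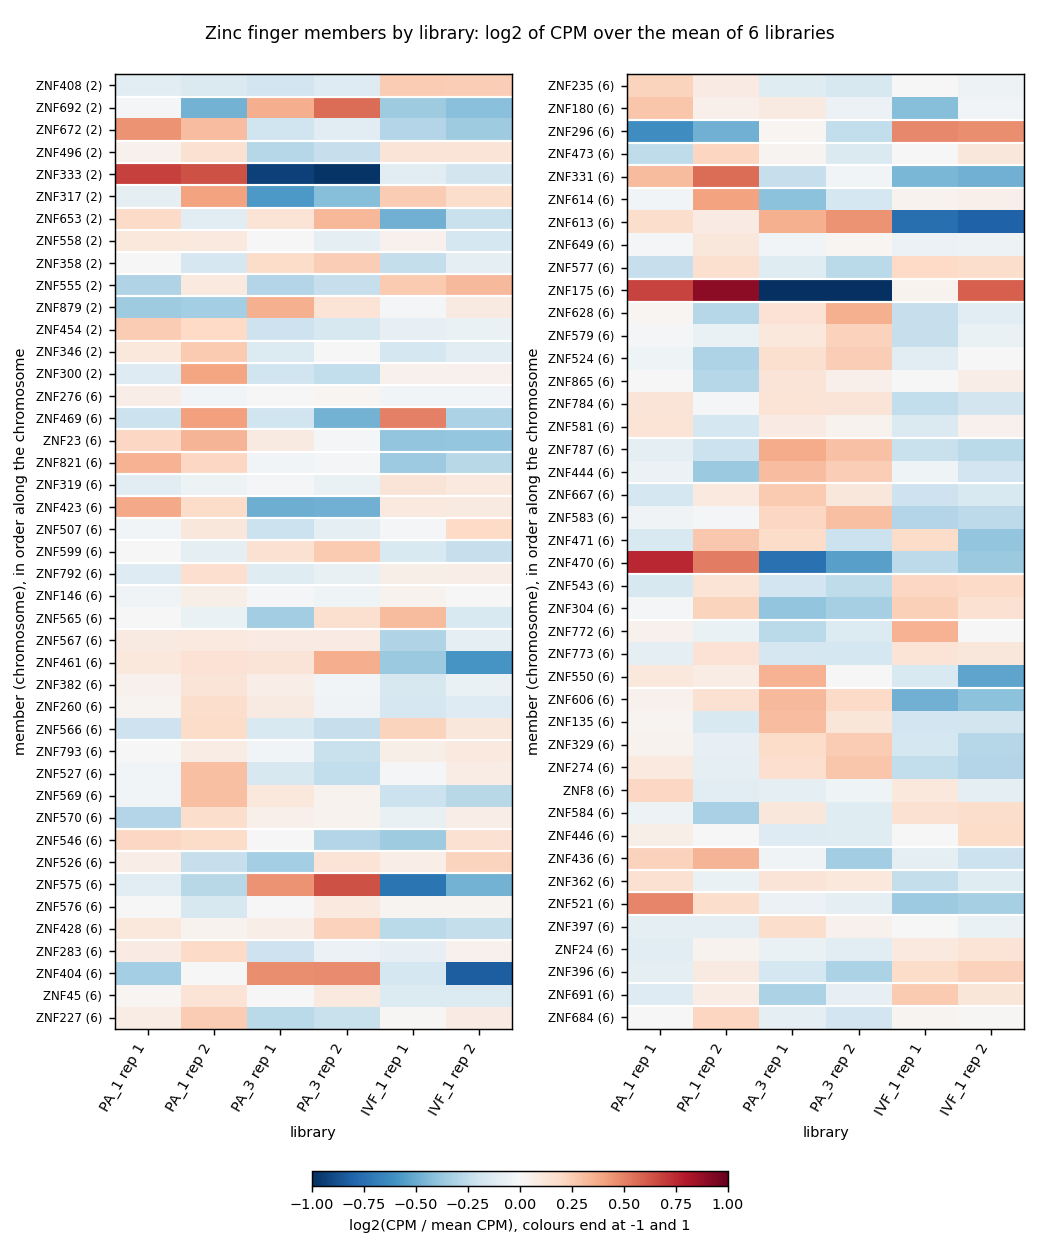
Log2 of CPM over the mean of the 6 libraries for each of the 85 genes (rows, in order along chromosomes 2 and 6, white lines between runs) in each library (columns); red is above and blue below the gene's mean, with the colours ending at -1 and 1. Most rows are pale, and ZNF175 and ZNF333 show the darkest blue in the 2 PA_3 libraries.

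Neighbouring genes were then compared pair by pair. In PA_3 against IVF_1, both genes of 10 of the 40 pairs were called, 9 in the same direction and 1 in opposite directions. The same count over all 12405 pairs of neighbouring tested genes at most 100 kb apart gave 3422 pairs with both called and 1994 in the same direction. Pairs called in the same direction were thus 22.5% of the pairs in the set and 16.1% of all pairs, and 90% of the pairs with both called against 58.3%. For the other tested genes of chromosomes 2 and 6 these shares were 17.5% and 60.5%. Of 35 pairs of ZNF genes on other chromosomes, 7 had both genes called, 5 of them in the same direction (14.3% and 71.4%). The pairs over all genes join consecutive tested genes, whereas pairs of the set can have other tested genes between them. The Pearson correlation of the log2 fold changes of neighbours was lower in the set than over all pairs, at 0.133 against 0.196. It was also lower in PA_1 against IVF_1 (0.1 against 0.202) and between the PA lines (0.0899 against 0.157). Over the pairs of ZNF genes on other chromosomes it was 0.31, 0.423 and 0.174 in the same order of comparisons. Some of the 9 pairs share a gene, so they are not independent. The differences from these other groups of pairs were not tested. In PA_1 against IVF_1 the set had 1 pair in the same and 1 in opposite directions, with 2.5% of its pairs in the same direction against 6.4% of all pairs. Between the PA lines it had 2 in the same and 2 in opposite directions, or 5% against 8.31%. No 2 consecutive genes of a run were both at least 2-fold changed in the same direction. The 9 pairs in PA_3 against IVF_1 fell to 4 without PA_3 replicate 1. The 1 pair in PA_1 against IVF_1 became 4 without PA_1 replicate 2 and 0 without any 1 library of PA_3 or IVF_1, and the 2 pairs between the PA lines became 1 without any 1 of these.

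The longest series of neighbours called alike was at the start of the 7-gene run on chromosome 6, where ZNF606, ZNF135, ZNF329 and ZNF274 were all called higher in PA_3 than in IVF_1. ZNF606, a KRAB gene, stood at 84.3 and 91.2 CPM in PA_1, 58.6 and 61.7 in IVF_1, and 102 and 93.7 in PA_3 (log2 fold change 0.71, SE 0.08, adjusted p = 1.5e-06 for PA_3 against IVF_1). ZNF274, which in human cells brings SETDB1 to the clusters of zinc finger genes themselves, stood at 12.4 and 10.9 CPM in PA_1, 9.78 and 9.48 in IVF_1, and 13.1 and 14.1 in PA_3 (0.50, SE 0.13, adjusted p = 0.0041). In between, ZNF135 changed by 0.40 (SE 0.10, adjusted p = 0.0041) and ZNF329 by 0.45 (SE 0.10, adjusted p = 0.0016). All 4 genes had both PA_3 libraries above both IVF_1 libraries, and the call of ZNF135 was lost without PA_3 replicate 1. The remaining genes of the run, ZNF8, ZNF584 and ZNF446, were not called, with log2 fold changes of -0.07, -0.16 and -0.22. In PA_1 against IVF_1 only ZNF606 of the 7 was called, with 0.54 (SE 0.08, adjusted p = 6.8e-05).

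The other pairs called higher in PA_3 than in IVF_1 were ZNF567 with ZNF461, ZNF628 with ZNF579, ZNF787 with ZNF444, and ZNF667 with ZNF583. Those called lower were ZNF543 with ZNF304 and ZNF24 with ZNF396. ZNF787 and the SCAN gene ZNF444 lie head to head 12.3 kb apart and were also called lower in PA_1 than in PA_3. ZNF787 stood at 19.4 and 17.8 CPM in PA_1, 17.6 and 17.1 in IVF_1, and 26.6 and 25.3 in PA_3, and ZNF444 at 16.6 and 13.4 CPM in PA_1, 16.7 and 15.2 in IVF_1, and 21.4 and 20.5 in PA_3. PA_3 was thus the highest line for both, without overlap, and the log2 fold changes of PA_1 against PA_3 were -0.48 (SE 0.10, adjusted p = 0.0014) and -0.47 (SE 0.12, adjusted p = 0.0052). Pairs of ZNF24 and ZNF396, both SCAN genes, and of the KRAB genes ZNF543 and ZNF304 lie on the same strand. ZNF304 stood at 20.3 and 23.8 CPM in PA_1, 24.0 and 22.7 in IVF_1, and 15.5 and 16.2 in PA_3 (log2 fold change of PA_3 against IVF_1 -0.56, SE 0.11, adjusted p = 0.00059). ZNF543 stood at 64.3 and 78.9 CPM in PA_1, 82.8 and 81.9 in IVF_1, and 63.1 and 60.3 in PA_3 (-0.42, SE 0.09, adjusted p = 0.00096). PA_3 was below both other lines in both genes without overlap, and against PA_1 the difference was called for ZNF304 and not for ZNF543 (adjusted p = 0.074). Besides ZNF329 with ZNF274, the pairs ZNF667 with ZNF583 and ZNF543 with ZNF304 were kept under all 12 alternatives. Of the rest, calls were lost without a library of PA_3 or IVF_1 for ZNF567 (PA_3 replicates 1 and 2, IVF_1 replicate 1), ZNF628 (PA_3 replicate 2, IVF_1 replicate 1), ZNF579 (PA_3 replicate 2, IVF_1 replicates 1 and 2), ZNF444 (PA_3 replicate 1, IVF_1 replicate 2) and ZNF24 (any of the 4).

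Some close neighbours differed. ZNF692 and ZNF672 on chromosome 2 lie tail to tail with 508 bases between them. ZNF692, which in human encodes the AICAR response element binding protein, stood at 16.9 and 12.3 CPM in PA_1, 13.3 and 12.8 in IVF_1, and 21.9 and 25.2 in PA_3. ZNF672 stood at 63.3 and 57.3 CPM in PA_1, 37.9 and 36.3 in IVF_1, and 40.5 and 42.9 in PA_3. ZNF692 was thus highest in PA_3 and ZNF672 highest in PA_1. In PA_1 against PA_3 the log2 fold changes were -0.67 (SE 0.13, adjusted p = 0.0008) and 0.54 (SE 0.08, adjusted p = 8.7e-05), and both calls were kept under all 12 alternatives. The other pair called in opposite directions there was ZNF879 with ZNF454, 37.4 kb apart on the same strand, where ZNF454 stood at 25.7 and 24.8 CPM in PA_1 against 18.7 and 19.3 in PA_3 (0.41, SE 0.10, adjusted p = 0.0035). ZNF773 with ZNF550 was called in opposite directions in PA_3 against IVF_1, with -0.30 and 0.51. The call of ZNF773 was lost without PA_3 replicate 2 or IVF_1 replicate 1, and that of ZNF550 without PA_3 replicate 1 or IVF_1 replicate 2.

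Among the head-to-head pairs, the starts of ZNF613 and ZNF649 lay closest, 64 bases apart. ZNF649, a KRAB gene, stood at 9.63 and 10.5 CPM in PA_1, 9.30 and 9.35 in IVF_1, and 9.52 and 9.82 in PA_3. It was called in no comparison, with log2 fold changes of 0.10 (SE 0.13) and 0.05 (SE 0.13) for PA_1 and PA_3 against IVF_1, where ZNF613 had 0.91 and 1.18. The difference between these neighbours was not tested, and the zinc finger protein 84-like gene on the other strand of ZNF613 had no reads in PA_3. The next closest, ZNF382 with ZNF260 at 126 bases and ZNF404 with ZNF45 at 139 bases, had no pair with both genes called. In PA_1 against IVF_1 their log2 fold changes were 0.20 and 0.25 for the former pair and 0.26 and 0.21 for the latter. In PA_3 against IVF_1 they were 0.14 and 0.18, and 0.93 (SE 0.40) and 0.19. Over the 13 head-to-head pairs, the median absolute difference of the log2 fold changes of a pair was 0.24 in PA_3 against IVF_1, against 0.366 over 14 tail-to-tail pairs and 0.343 over 13 pairs on the same strand.

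**Figure D5:**
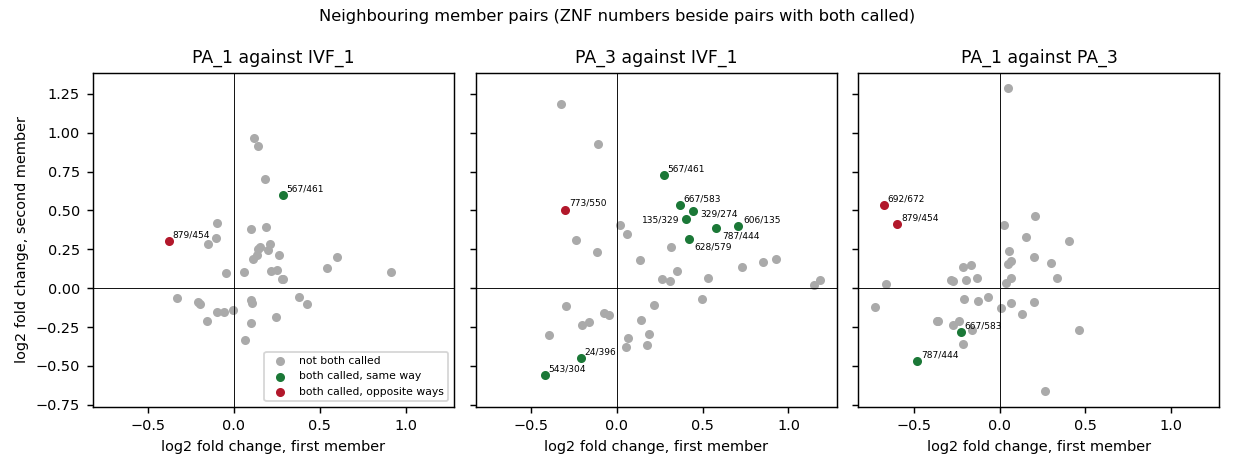
Log2 fold changes of the 2 genes of each of the 40 neighbouring pairs in the 3 comparisons of lines; the x axis gives the gene that starts first on the chromosome and the y axis its neighbour, green marks pairs with both genes called in the same direction and red those called in opposite directions. In PA_3 against IVF_1, 7 green points lie in the quadrant of 2 rises and 2 in that of 2 falls, with 1 red point.

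PEG3, itself a zinc finger gene that is imprinted and expressed from the paternal allele in mammals, lies on chromosome 6 between ZNF470 and ZNF543. It had 1 and 1 counts in PA_1, 311 and 226 in IVF_1, and 3 and 8 in PA_3, and was called lower in both PA lines (edgeR adjusted p = 3.6e-11 and 2.2e-11). Its nearest neighbours in the set did not take that pattern. ZNF543, 266 kb after it, changed by -0.21 (SE 0.09, adjusted p = 0.087) in PA_1 and -0.42 in PA_3 against IVF_1, and ZNF470, 382 kb before it, was higher in PA_1. ZNF304, 402 kb after it, was called lower in PA_3 and not called in PA_1 against IVF_1, and ZNF471, 481 kb before it, had log2 fold changes of 0.11 and 0.06 with SEs of 0.31 and 0.30. Of the 8 symbols listed for that domain, the other 7 were not matched and are not analysed here.

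Genes of the repression machinery that KRAB zinc finger proteins recruit were read beside the set, in a list that also holds the zinc finger genes ZFP57 and ZNF445. Of 21 symbols 20 were matched, CBX3 being the exception, and 7 were called higher and 1 lower in PA_1 against IVF_1, 6 higher and 7 lower in PA_3 against IVF_1, and 6 higher and 2 lower in PA_1 against PA_3. Over all genes tested, 31.4%, 52.1% and 36.8% were called either way in these comparisons, so the totals of the list were not far from the background. By direction, 15.3% of all genes were called higher and 16.1% lower in PA_1 against IVF_1. The shares were 25.9% and 26.2% in PA_3 against IVF_1, and 17.8% and 19% in PA_1 against PA_3. Higher calls of the list thus outnumbered lower ones in the comparisons of PA_1, which was not tested. The medians of their log2 fold changes were 0.10, 0.02 and 0.16. TRIM28, the corepressor, stood at 743 and 639 CPM in PA_1, 791 and 744 in IVF_1, and 572 and 634 in PA_3. It was lower in PA_3 than in IVF_1 by a log2 fold change of -0.35 (SE 0.08, adjusted p = 0.0012). SETDB1, the histone H3 lysine methyltransferase, stood at 98.1 and 87.4 CPM in PA_1, 79.7 and 77.8 in IVF_1, and 82.5 and 81.9 in PA_3, and was called only in PA_1 against IVF_1 (0.24, SE 0.08, adjusted p = 0.025). Its partner ATF7IP rose in both PA lines (0.32 and 0.22), and ATF7IP2 rose in PA_3 (0.78, SE 0.15, adjusted p = 0.00038).

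DNMT1, the maintenance DNA methyltransferase, stood at 303 and 287 CPM in PA_1, 302 and 301 in IVF_1, and 211 and 213 in PA_3, lower in PA_3 than in IVF_1 by -0.51 (SE 0.06, adjusted p = 5e-06). UHRF1, which guides DNMT1, was called higher in PA_1 (0.31) and lower in PA_3 (-0.34) than in IVF_1, and so was the heterochromatin protein gene CBX5 (0.27 and -0.28). PA_3 thus had the lowest levels of all 3. HDAC1 and CHD4, of the deacetylase complex, were also lower in PA_3 than in IVF_1 (-0.45 and -0.27), while CHD3, TASOR, RESF1 and CBX1 were higher (0.33, 0.31, 0.23 and 0.21) and PPHLN1 was lower (-0.28). In PA_1 against IVF_1, CBX1 and TASOR rose (0.26 and 0.21) and PPHLN1 fell (-0.25). The gene model named ZFP57, annotated as a pseudogene in the table, stood at 10.1 and 8.50 CPM in PA_1, 1.63 and 1.18 in IVF_1, and 1.80 and 2.66 in PA_3, the largest change in the list (2.72, SE 0.24, adjusted p = 2.8e-07 for PA_1 against IVF_1). ZNF445, which like ZFP57 guards imprints in mammals, was called in no comparison and neither were HDAC2, MPHOSPH8, MORC2 and SMARCAD1. In PA_3 against IVF_1 the calls of TRIM28, ATF7IP2, DNMT1, UHRF1, HDAC1, CHD4, CHD3 and TASOR were kept without each library. That of CBX5 was lost without PA_3 replicate 2, those of ATF7IP and RESF1 without PA_3 replicate 1 or either IVF_1 library, and those of CBX1 and PPHLN1 without either PA_3 library or IVF_1 replicate 2, that of PPHLN1 also without IVF_1 replicate 1. In PA_1 against IVF_1 each call but that of ZFP57 was lost without at least 1 IVF_1 library, and those of SETDB1 and PPHLN1 also without PA_1 replicate 1.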

How the data were processed

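Per the labels' protocols, libraries were prepared with a stranded kit from oligo(dT)-selected RNA and read as pairs of 151 bp. Per the submitters' processing notes, tools were cutadapt 2.8 and STAR 2.7.1a and the build was Sscrofa11.1, while for the counting the tool, annotation and strand handling were not given in the sources used here. Read counts per gene were deposited, as the authors counted them and not normalised, with the authors' TPM. A further 54 columns of values from other samples were not used. Coordinates and symbols are the table's own.

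The counts were tested with edgeR 4.0.16 in R 4.3.3 (filterByExpr by line, TMM, robust glmQLFit, glmQLFTest, two-sided, 1 coefficient per line, all 6 libraries, 3 residual degrees of freedom), with Benjamini-Hochberg adjustment over the 15197 genes tested and a threshold of 0.05. A gene past it is called higher or lower. The fit was tested on simulated data. SEs are the log2 fold change over the square root of F. For a single value, the smallest exact permutation p that 2 libraries a line allow is 0.333. Limits and intervals are of counting error alone, as the reads carry no molecular identifiers and are not independent molecules. The libraries of each line differed by more than sampling noise, with a chi-square per degree of freedom of 2.78 to 11.6.

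Named genes are those silent in a line, up to 8 called genes per direction and comparison by log2 fold change (at least 1 CPM in the higher line, libraries not overlapping), the 5 with the highest TPM, those nearest the threshold of 60 counts, those called opposite ways in the PA lines, and the listed repression and PEG3 genes. Other names, among them the neighbours in pairs, were chosen after their values were seen. The members and lists were chosen with earlier results of these data known. The 12 alternatives were DESeq2 1.42.0 size factors, the DESeq2 Wald test, no filter, a replicate block, only the 4 libraries compared, each library left out in turn, and, chosen after seeing the data, no mitochondrial genes. For pairs, gaps of 50 and 250 kb were also tried.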

Additional observations from a re-analysis of the deposited data

Results flagged for a closer look

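ZNF333 differed between the PA lines in its change against the same IVF_1 libraries, rising in PA_1 and falling in PA_3, with a log2 fold change of 1.62 for PA_1 against PA_3 (edgeR adjusted p = 2.5e-08). ZNF879 took the reverse course, with -0.595 (edgeR adjusted p = 3.4e-05).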

How the results depend on the processing

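Of the calls in the set, 9 of 21 in PA_1 against IVF_1, 20 of 43 in PA_3 against IVF_1 and 14 of 26 in PA_1 against PA_3 were kept under all 12 alternatives, and no call changed direction. The median log2 fold change of the set stayed between 0.107 and 0.156, 0.0323 and 0.0533, and 0.0188 and 0.117. Leaving out each library in turn gave 10 to 24 higher and 0 to 11 lower calls in PA_1 against IVF_1, 14 to 29 and 10 to 18 in PA_3 against IVF_1, and 11 to 27 and 6 to 10 in PA_1 against PA_3. It gave 0 to 4, 4 to 10 and 1 to 3 pairs called alike. With the DESeq2 Wald test, PA_1 against IVF_1 had 11 higher and 2 lower calls and 0 pairs, PA_3 against IVF_1 had 14 higher calls, and PA_1 against PA_3 had 5 lower calls and 1 pair. With DESeq2 size factors PA_1 against PA_3 had 1 pair, and with only the 4 libraries compared it had 6 lower calls and 1 pair. The cause was not tested. ZNF175 remained the only silent gene under every setting tried. Low counts limit genes such as ZNF296 and ZNF404.

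The correlation over genes of the deviations of same-numbered libraries from their line means was -0.136, 0.0858 and -0.0801. With 2 libraries a line, these weak values cannot decide whether same-numbered libraries were prepared together. With the replicate block, PA_1 against PA_3 had 1 pair called alike in place of 2, and the counts of calls in the set were 21, 45 and 26 against 21, 43 and 26.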
